A study of Mus musculus with 12 samples.

Results

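Chemokine ligand genes were read out in a floor-of-mouth squamous cell carcinoma model of the mouse. They were taken as every array probe whose annotated symbol is Ccl, Cxcl, Cx3cl or Xcl with a number, with Ppbp and Pf4 added, which gave 59 of 45135 probes and 38 of 19031 named genes. The series held 5 recurrent tumors, 5 primary tumors and 2 samples of cultured SCC-7 cells, the mouse squamous cell carcinoma line that gave rise to all tumors. Each BALB/c-nu mouse gave 2 tumors: a primary one, grown from SCC-7 cells placed in the mouth and taken out by surgery, and a recurrent one that regrew there. The tumor groups therefore share the cell line and the host, and no group received a drug or carried an engineered allele. BALB/c-nu mice lack a thymus and with it most mature T cells, while macrophages, NK cells and B cells remain. The tumor RNA comes from whole tissue, in which fewer cells of a type and less RNA per cell cannot be told apart.

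Chemokines are small secreted proteins that guide leukocytes by binding G protein-coupled receptors on them. They are grouped as CC, CXC, CX3C and XC ligands by the spacing of their first cysteines, and by the receptor they engage: Ccr2 ligands draw monocytes, Cxcr2 ligands draw neutrophils, Cxcr3 ligands draw activated T and NK cells, and Ccr7 and Cxcr5 ligands organize lymphoid tissue. Many are transcribed on demand through NF-kB or interferon signaling, in tumor cells as well as in macrophages, fibroblasts and endothelium.

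Levels are given as log2 of the background-corrected, quantile-normalized bead intensity, so that a difference of 1 is a doubling, and a level is compared only with the same probe on other arrays. A probe was counted as detected on an array if at most 1% of the negative controls reached its brightness. Of the 59 probes, 40 probes of 29 genes were detected on at least 2 of the 12 arrays and were kept, as were 18454 probes in all. The other 19 probes were not kept, and 9 genes had no kept probe: Ppbp, Cxcl15, Ccl28, Ccl20, Ccl22, Cxcl2, Ccl26, Cxcl11 and Cxcl3. Of these 9, Ccl28 and Cxcl2 had a probe detected on 1 array, and Cxcl5 is not named by the annotation. The brightest kept probe stands for a gene unless another is named. The recurrent tumors had 24 to 27 of the 29 kept genes detected, the primary tumors 22 to 27 and the SCC-7 arrays 11 and 13.

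Some arrays stood apart from their group. Primary tumor 3 had the most detected probes, 17083, against 15043 to 16758 in the other tumors and 13711 and 13868 in SCC-7 cells. Its T cell and NK cell list (7 of 13 markers kept) averaged 10.20, against 5.68 to 7.07 in the other tumors and 5.26 to 5.33 in SCC-7 cells, and its B cell list, of which Cd79b and Cd22 were kept of 6 genes, averaged 12.24, against 5.81 to 8.23 in the other tumors and 4.45 to 4.79 in SCC-7 cells. Its macrophage list (10 of 11 kept) was the lowest of the tumors at 9.30. Markers of salivary gland, a tissue of the floor of the mouth, averaged 5.50 in recurrent tumor 1 and 13.84 in primary tumor 1, the lowest and the highest of the 10 tumors. The list averaged 7.55 to 7.57 in SCC-7 cells, above recurrent tumor 1. Of its markers, Bpifa2 had 11.16 and 11.24 in SCC-7 cells, and Aqp5, at 13.26 and 13.25, was brighter there than in any tumor. The list is thus not a measure of gland tissue alone. The macrophage list averaged 9.99 to 10.75 in recurrent tumors, 9.30 to 10.24 in primary tumors and 6.54 to 6.61 in SCC-7 cells. The keratinocyte list (4 of 11 kept) averaged 5.50 to 7.69 in recurrent tumors, 5.58 to 8.06 in primary tumors and 6.67 to 6.81 in SCC-7 cells, where Krt14 had levels of 7.27 and 7.37 and Krt5 was not detected.

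Set against SCC-7 cells, Ccl12, Ccl8, Ccl9, Ccl6, Ccl3, Ccl4, Cxcl16, Cxcl14, Cxcl9 and Pf4 were higher in both tumor groups. In recurrent tumors 16 of 40 chemokine probes, from 13 of 29 genes, passed an adjusted p of 0.05 at 2-fold or more as higher, against 6.86% of all kept probes. In primary tumors 17 probes, from 12 genes, passed, against 6.64% of all kept probes. With 1 array left out the counts were 10 to 15 in recurrent tumors, where either SCC-7 array gave the lowest, and 7 to 20 in primary tumors, with 9 and 7 when the first or the second SCC-7 array was left out. Without background correction 11 passed in primary tumors. A single gene, Cxcl1, was lower in each comparison, where 5.02% of all kept probes were lower in recurrent tumors and 5.73% in primary tumors. Of the called genes 11, with Cxcl1 among them, were called in both comparisons, which share the 2 SCC-7 arrays. The 29 genes had a median log2 difference of 2.15 in recurrent tumors and 2.38 in primary tumors, against -0.11 and -0.15 over all kept probes. These counts cannot be read as an excess: 16 of the 29 genes were detected on no SCC-7 array and so were kept only because the tumors were bright. Among the 11 genes detected on both SCC-7 arrays, 5 were higher and 1 lower in recurrent tumors, and 4 were higher and 1 lower in primary tumors. The same share was not counted over all probes detected on both SCC-7 arrays, so these counts do not show an excess either. In all 10 tumors 25 probes of 18 genes lay above both SCC-7 arrays, as did 15% of all kept probes, and 3 probes of 2 genes, Cxcl1 and Ccl25, lay below them, as did 24.2% of all kept probes.

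**Figure D1:**
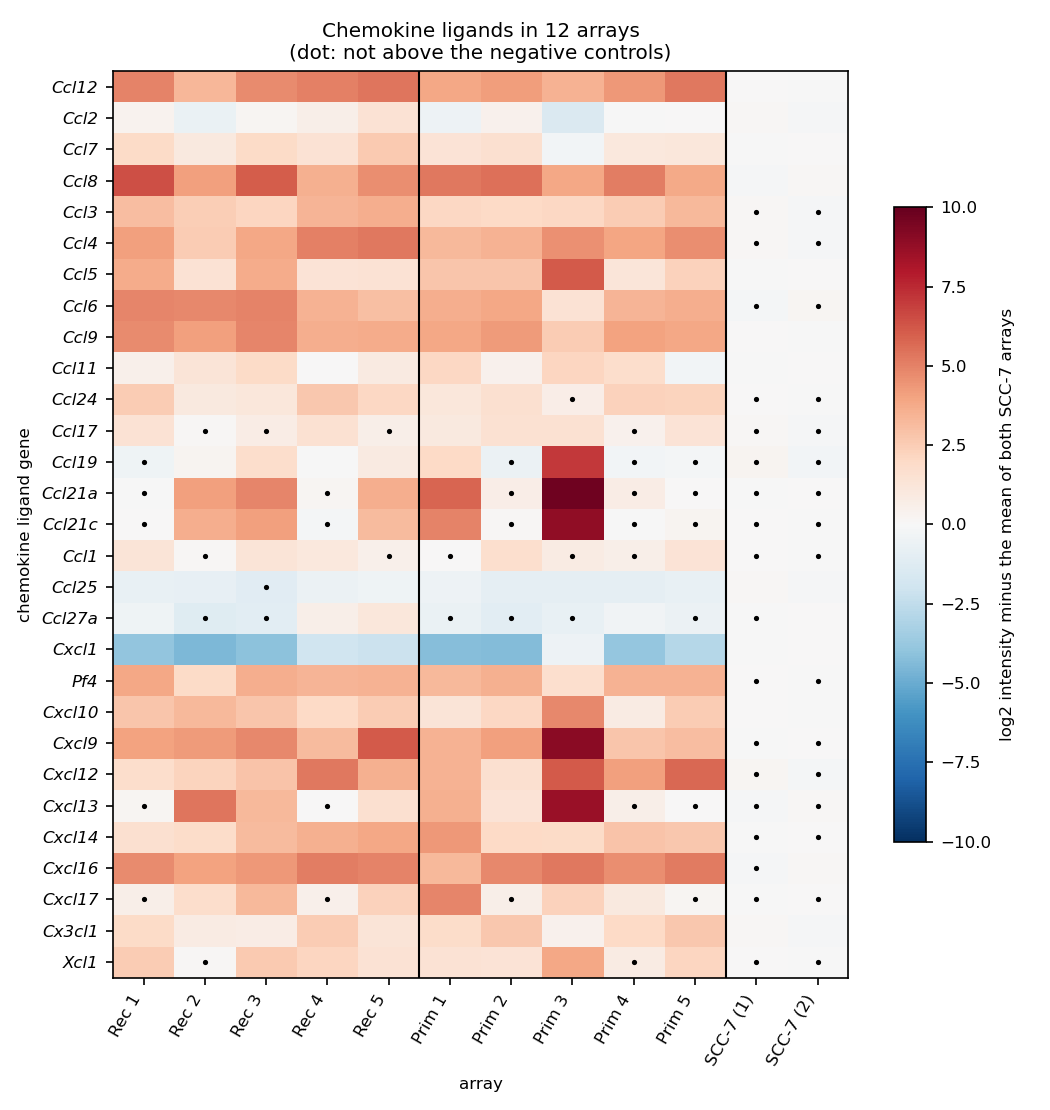
Each cell shows a chemokine ligand's log2 intensity on an array minus its mean on both SCC-7 arrays, with recurrent tumors on the left, primary tumors in the middle and SCC-7 cells on the right; a dot marks a probe not detected on that array. Ccl12, Ccl8, Ccl9 and Cxcl16 are among the genes red in all 10 tumors, Cxcl1 is blue in all 10, and Ccl19, Ccl21a, Ccl21c and Cxcl13 are darkest in primary tumor 3.

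Of the 4 kept genes grouped here as Ccr2 ligands, 3 were called higher in recurrent tumors and 2 in primary tumors. The grouping was set by a list, and the receptors that each ligand engages in these tumors were not examined. Ccl12, a Ccr2 ligand found in mice, had levels of 11.63, 10.02, 11.39, 11.70 and 12.05 in recurrent tumors 1 to 5, of 10.58, 10.84, 10.13, 11.02 and 11.94 in primary tumors 1 to 5, and of 6.69 and 6.68 in SCC-7 cells. Every tumor lay more than 3 log2 units above the cells, and the tumor groups overlapped. The difference from SCC-7 cells was 4.67 ± 0.52 (SE), or 25.5-fold, in recurrent tumors and 4.22 ± 0.52, or 18.6-fold, in primary tumors, with limma's adjusted p of 1.2e-04 and 2.6e-04, and its other kept probe gave 4.73 and 4.15.

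Ccl8, a CC ligand placed in the same group, had levels of 13.25, 10.97, 12.92, 10.39 and 11.46 in recurrent tumors 1 to 5, of 12.10, 12.34, 10.70, 11.92 and 10.66 in primary tumors 1 to 5, and of 6.69 and 6.99 in SCC-7 cells. Recurrent tumors 1 and 3 were the highest, and the tumor groups overlapped over most of their range. Its level was 31.1-fold higher in recurrent tumors (log2 difference 4.96 ± 0.74, adjusted p = 9.6e-04) and 26.1-fold higher in primary tumors (4.70 ± 0.74, adjusted p = 0.0013) than in SCC-7 cells.

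Ccl7 and Ccl2 were already detected in both SCC-7 arrays. Ccl7, another monocyte attractant, had levels of 11.40, 10.48, 11.47, 11.00 and 12.14 in recurrent tumors 1 to 5, of 10.85, 11.09, 9.22, 10.58 and 10.68 in primary tumors 1 to 5, and of 9.47 and 9.57 in SCC-7 cells. Primary tumor 3 alone fell below the cells. The difference was 1.78 ± 0.49 in recurrent tumors (adjusted p = 0.028) and 0.96 ± 0.49 in primary tumors (adjusted p = 0.18), and without primary tumor 3 it was 1.28 in primary tumors with an adjusted p of 0.029. A second Ccl7 probe gave 1.23 in recurrent tumors with an adjusted p of 0.056, and the call of the first was also lost without recurrent tumor 3, without either SCC-7 array and without a filter. Ccl2, the best known of the monocyte attractants, ranged from 7.41 to 9.54 in recurrent tumors and from 6.68 to 8.55 in primary tumors, around the 8.21 and 8.02 of SCC-7 cells. Its differences of 0.37 ± 0.53 and -0.30 ± 0.53 did not pass (adjusted p = 0.66 and 0.71), and 5 of 10 tumors lay above both SCC-7 arrays.

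**Figure D2:**
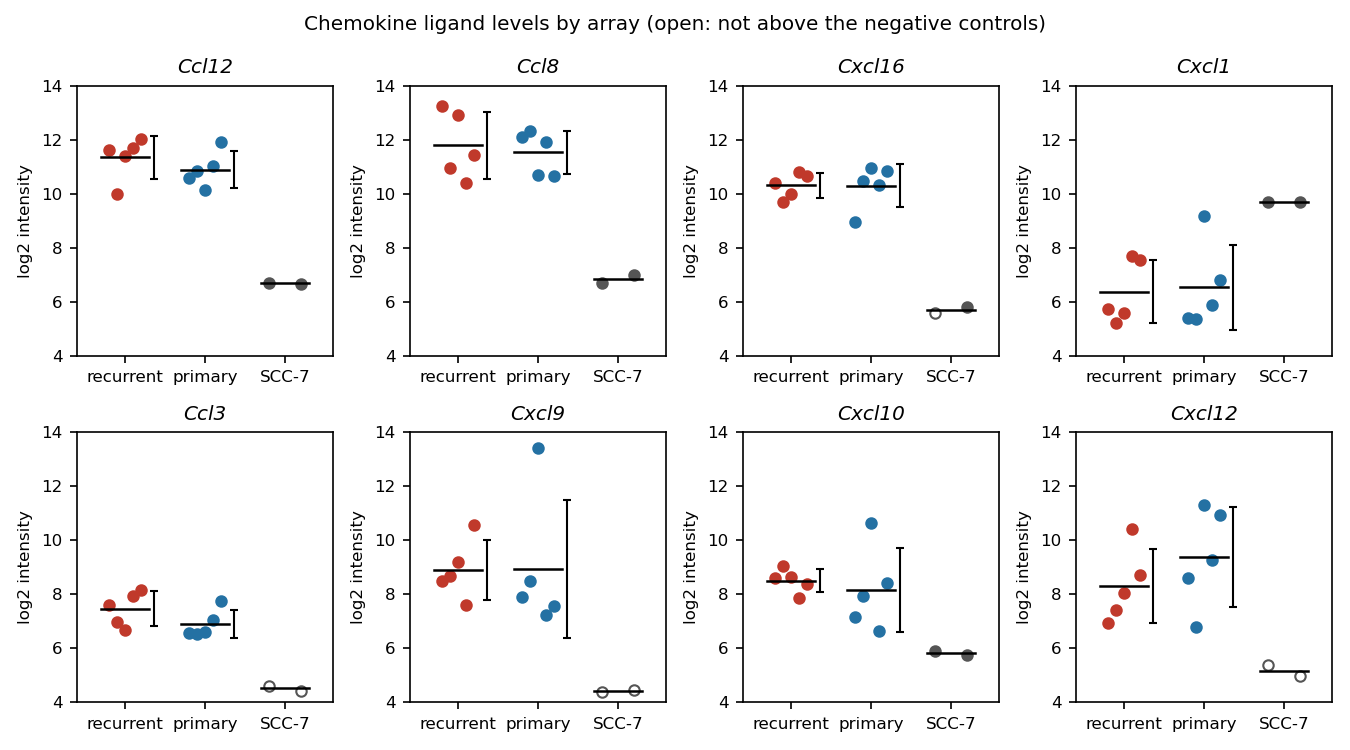
Levels of 8 chemokine ligands are plotted by array as log2 intensity, with recurrent tumors left, primary tumors in the middle and SCC-7 cells right; lines are group means, bars are SD over the 5 tumors, and open points mark probes not above the negative controls. In every panel but that of Cxcl1 all 10 tumors lie above both SCC-7 arrays, and for Cxcl1 all 10 lie below them. Recurrent and primary tumors overlap in every panel.

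Of Ccl3, Ccl4, Ccl5, Ccl6 and Ccl9, which attract macrophages, T cells and other leukocytes, 4 of 5 were higher in both tumor groups. Ccl9, a Ccr1 ligand of rodents, had levels of 12.16, 11.51, 12.32, 11.09 and 11.15 in recurrent tumors 1 to 5, of 11.31, 11.67, 9.99, 11.45 and 11.33 in primary tumors 1 to 5, and of 7.45 and 7.44 in SCC-7 cells. Primary tumor 3 was the lowest tumor and still lay above the cells. The rise was 18.5-fold in recurrent tumors (4.21 ± 0.45, adjusted p = 8.3e-05) and 13.1-fold in primary tumors (3.71 ± 0.45, adjusted p = 2.1e-04).

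Ccl6, its close relative, was not above the negative controls in SCC-7 cells, where only a bound on the fold change can be given: the tumor mean is then divided by the dimmest signal counted as detected, or by the probe's own signal where that is higher. Its levels were 9.65, 9.58, 9.69, 8.19 and 7.75 in recurrent tumors 1 to 5, 8.41, 8.65, 6.20, 8.13 and 8.39 in primary tumors 1 to 5, and 4.59 and 4.91 in SCC-7 cells. Recurrent tumors 1 to 3 were the highest and primary tumor 3 the lowest of the 10. Ccl6 was at least 9.82-fold higher in recurrent tumors (adjusted p = 0.0017) and at least 4.85-fold higher in primary tumors (adjusted p = 0.0086), a call lost without either SCC-7 array.

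Ccl3 and Ccl4, the macrophage inflammatory proteins 1-alpha and 1-beta, were likewise not detected in SCC-7 cells and were detected in every tumor. Ccl4 had levels of 9.46, 7.89, 9.19, 10.35 and 10.64 in recurrent tumors 1 to 5, of 8.61, 8.82, 9.87, 9.28 and 9.97 in primary tumors 1 to 5, and of 5.46 and 5.21 in SCC-7 cells. The lowest tumor was recurrent tumor 2 and the highest recurrent tumors 4 and 5. It was at least 14.2-fold higher in recurrent tumors (adjusted p = 0.0010) and at least 12.4-fold higher in primary tumors (adjusted p = 0.0014). Ccl3 was at least 3.48-fold higher in recurrent tumors (adjusted p = 7.9e-04) and at least 2.34-fold higher in primary tumors (adjusted p = 0.0032, or 0.057 without the second SCC-7 array), and its values stand with the paired comparison.

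Ccl5, which draws T cells and NK cells, lay above both SCC-7 arrays in all 10 tumors, at 7.76 to 10.07 in recurrent tumors, 7.55 to 12.53 in primary tumors and 6.35 to 6.40 in SCC-7 cells, and did not pass the test. Its differences were 2.34 ± 1.10 in recurrent tumors (adjusted p = 0.16) and 3.03 ± 1.10 in primary tumors (adjusted p = 0.077). The largest value, 12.53, was that of primary tumor 3.

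Ccl24, a ligand of the eosinophil receptor Ccr3 that macrophages make, had levels of 6.86, 5.32, 5.45, 7.03 and 6.41 in recurrent tumors 1 to 5, of 5.46, 5.91, 5.01, 6.66 and 6.55 in primary tumors 1 to 5, and of 4.35 and 4.33 in SCC-7 cells. It was not detected in SCC-7 cells or in primary tumor 3. Ccl24 was at least 1.45-fold higher in recurrent tumors (adjusted p = 0.033) and at least 1.18-fold higher in primary tumors, where the test did not pass (adjusted p = 0.061) until primary tumor 3 was left out (adjusted p = 0.027). The call in recurrent tumors was lost in 6 of 15 settings, namely without a filter on dim probes and without recurrent tumor 1, 4 or 5 or either SCC-7 array. Ccl11, the other kept Ccr3 ligand, ranged from 5.97 to 7.86 in recurrent tumors and from 5.69 to 8.10 in primary tumors, with a mean of 5.96 in SCC-7 cells, and did not pass in either group. The Ccr4 ligand Ccl17 averaged 5.37 ± 0.60 in recurrent tumors and 5.65 ± 0.47 in primary tumors (SD, n = 5 each), was detected in 6 of the 10 tumors and in neither SCC-7 array, and was not called.

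**Figure D3:**
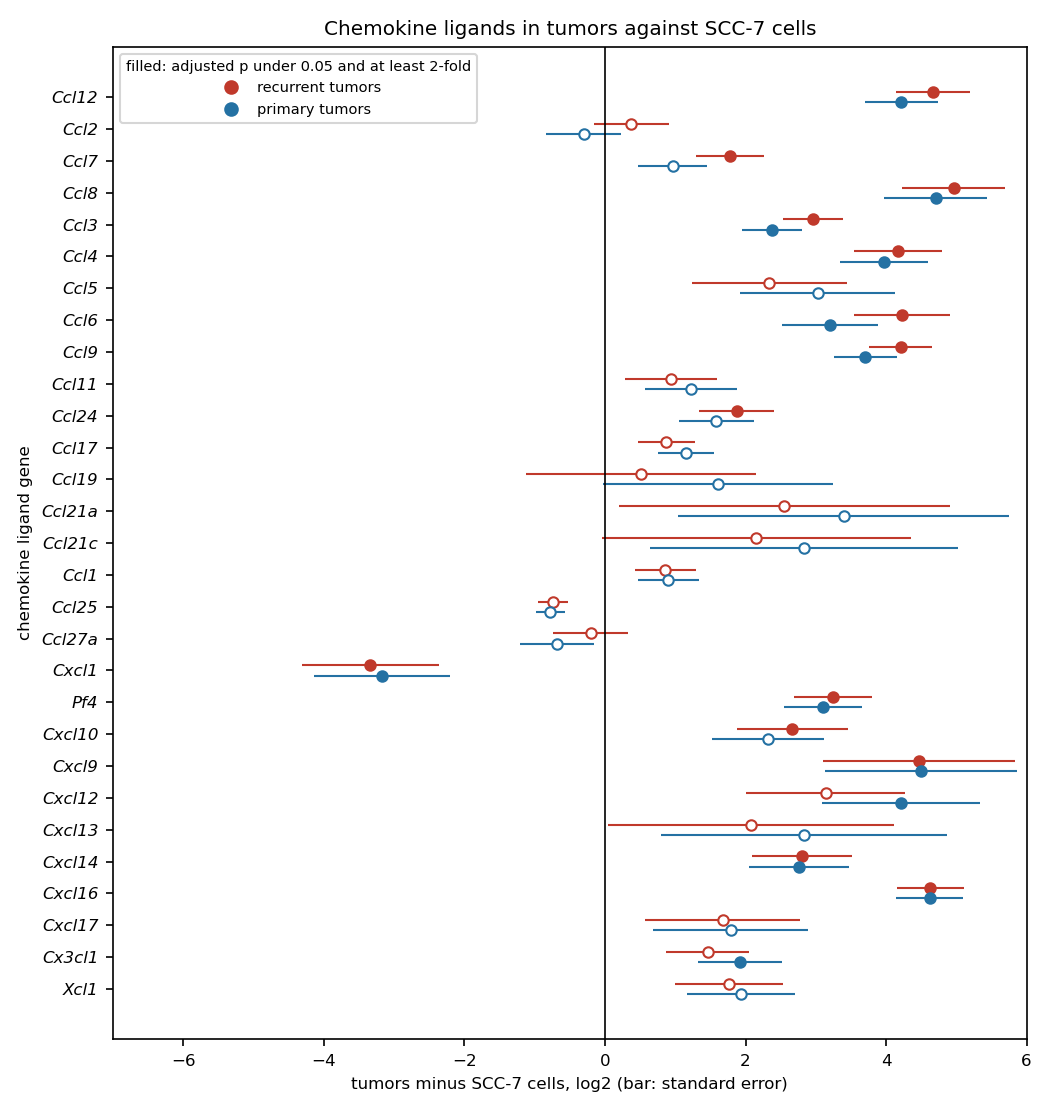
Points give the log2 difference of recurrent (upper, red) and primary (lower, blue) tumors from SCC-7 cells for each of the 29 kept chemokine genes, with the standard error of the 3-group fit as bars and filled points where the adjusted p was under 0.05 at 2-fold or more. For the 16 genes not detected in SCC-7 cells the point depends on the background estimate. Ccl12, Ccl8, Ccl9 and Cxcl16 are among the genes with both points filled, with standard errors under 0.75, while the bars of Ccl19, Ccl21a, Ccl21c and Cxcl13 span 1.63 or more on either side.

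Cxcl1, a Cxcr2 ligand that draws neutrophils, was the only chemokine called lower in tumors. It had levels of 5.75, 5.23, 5.60, 7.70 and 7.56 in recurrent tumors 1 to 5, of 5.41, 5.38, 9.18, 5.88 and 6.82 in primary tumors 1 to 5, and of 9.70 and 9.72 in SCC-7 cells. All 10 tumors lay below the cells, with primary tumor 3 closest to them and recurrent tumors 4 and 5 next. Its level was 10.1-fold lower in recurrent tumors (log2 difference -3.34 ± 0.97, adjusted p = 0.035) and 9.02-fold lower in primary tumors (-3.17 ± 0.97, adjusted p = 0.043). The call was lost in 7 of 15 settings tried in recurrent tumors and in 8 of 16 in primary tumors, median scaling and leaving out either SCC-7 array among them, with log2 differences between -3.83 and -2.51 over all settings. The neutrophil list (8 of 9 markers kept) averaged 7.95 in primary tumor 3 and 6.97 in recurrent tumor 5, at most 5.22 in the other tumors and 4.90 in SCC-7 cells, and its part in the Cxcl1 levels was not tested.

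Promoters are shown for Cxcl1, lowered in tumors, for Cxcl10, and for the raised neighbors Ccl12 and Ccl8. They are windows of 300 bases around the start site from RefSeq (GRCm38.p6), 5′ to 3′ on the gene's strand, at chr5:90890995-90891294 (+) for Cxcl1, chr5:92348840-92349139 (−) for Cxcl10, chr11:82101595-82101894 (+) for Ccl12 and chr11:82114935-82115234 (+) for Ccl8. Capitals mark matches, on either strand, to the NF-kB consensus, the interferon-stimulated response element or the TATA box letters TATAAA.
Cxcl1: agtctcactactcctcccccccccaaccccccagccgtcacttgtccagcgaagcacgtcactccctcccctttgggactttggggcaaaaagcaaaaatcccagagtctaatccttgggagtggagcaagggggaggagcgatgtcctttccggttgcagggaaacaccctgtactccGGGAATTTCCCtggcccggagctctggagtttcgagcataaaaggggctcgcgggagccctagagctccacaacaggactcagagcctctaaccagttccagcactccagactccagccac
Cxcl10: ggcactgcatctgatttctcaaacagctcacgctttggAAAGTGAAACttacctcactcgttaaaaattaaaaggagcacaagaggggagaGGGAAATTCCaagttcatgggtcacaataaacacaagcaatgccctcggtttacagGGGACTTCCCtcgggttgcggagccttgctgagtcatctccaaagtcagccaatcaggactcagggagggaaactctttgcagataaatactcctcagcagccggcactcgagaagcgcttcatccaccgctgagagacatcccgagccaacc
Ccl12: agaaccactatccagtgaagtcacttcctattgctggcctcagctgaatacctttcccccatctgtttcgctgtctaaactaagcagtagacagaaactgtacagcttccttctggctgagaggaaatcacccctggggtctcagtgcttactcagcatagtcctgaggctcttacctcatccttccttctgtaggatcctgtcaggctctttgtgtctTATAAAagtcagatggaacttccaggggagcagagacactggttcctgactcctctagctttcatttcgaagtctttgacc
Ccl8: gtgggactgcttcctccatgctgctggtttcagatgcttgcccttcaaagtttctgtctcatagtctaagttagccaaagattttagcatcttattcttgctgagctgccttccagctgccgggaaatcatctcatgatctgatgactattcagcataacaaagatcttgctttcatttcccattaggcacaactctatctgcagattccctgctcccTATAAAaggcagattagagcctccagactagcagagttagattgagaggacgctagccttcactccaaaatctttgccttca

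In Cxcl1 the NF-kB consensus matched 71 and 70 bases before the start site, in overlapping positions on opposite strands. Cxcl10 held it 159 and 103 bases before its start, with an interferon-stimulated response element 212 bases before. The Ccl12 and Ccl8 windows held neither, and TATAAA began 31 and 32 bases before their starts. Raised genes did not all lack the NF-kB consensus: Ccl9, not shown, held it 35 bases before its start. Of 30 chemokine promoters of 27 genes in the table, 7 held the NF-kB consensus (Ccl20, Ccl27a, Ccl9, Cxcl1, Cxcl10, Cxcl2 and Cxcl3), against 4.51% of 32851 promoters of the same length. The interferon element stood in 2, those of Ccl19 and Cxcl10, against 1.55% of all promoters, and TATAAA in 10, against 13.6%. Ccl4, Ccl7, Ccl24 and Cxcl16, all called higher in recurrent tumors, are among the chemokine genes without a window, so these shares leave them out. A match describes the letters of a window and not the binding of a factor.

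Of the interferon-inducible Cxcr3 ligands, Cxcl9 was called higher in both tumor groups and Cxcl10 in recurrent tumors. Cxcl9 had levels of 8.48, 8.67, 9.20, 7.59 and 10.58 in recurrent tumors 1 to 5, of 7.92, 8.51, 13.42, 7.24 and 7.55 in primary tumors 1 to 5, and of 4.39 and 4.47, not detected, in SCC-7 cells. Primary tumor 3 stood highest, followed by recurrent tumor 5. The mean level was at least 9.37-fold higher in recurrent tumors (adjusted p = 0.043) and at least 9.53-fold higher in primary tumors (adjusted p = 0.042). The bound of primary tumors was raised by primary tumor 3 and does not describe the others, which had 7.24 to 8.51. Without primary tumor 3 the log2 difference of primary tumors fell from 4.50 to 3.37, with an adjusted p of 0.0039. The call was lost in 10 of 15 settings in recurrent tumors and in 7 of 16 in primary tumors, among them median scaling and leaving out either SCC-7 array, with an adjusted p of at most 0.23.

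Cxcl10 had levels of 8.61, 9.05, 8.64, 7.87 and 8.39 in recurrent tumors 1 to 5, of 7.16, 7.94, 10.63, 6.66 and 8.42 in primary tumors 1 to 5, and of 5.92 and 5.77 in SCC-7 cells. The recurrent tumors lay within 1.2 log2 units of each other, and the primary tumors spread over 4. The difference from SCC-7 cells was 2.67 ± 0.79 in recurrent tumors, or 6.35-fold (adjusted p = 0.039), and 2.32 ± 0.79 in primary tumors (adjusted p = 0.064), or 1.70 with an adjusted p of 0.021 without primary tumor 3. The call in recurrent tumors was lost in 9 of 15 settings, with an adjusted p of at most 0.22.

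Pf4, platelet factor 4, is stored in platelet granules. Its levels were 9.11, 7.19, 8.90, 8.68 and 8.73 in recurrent tumors 1 to 5, 8.52, 8.81, 6.97, 8.79 and 8.78 in primary tumors 1 to 5, and 5.33 and 5.22, not detected, in SCC-7 cells. Apart from recurrent tumor 2 and primary tumor 3, the tumors lay within 0.6 log2 units of each other. Pf4 was at least 7.20-fold higher in recurrent tumors (adjusted p = 0.0024) and at least 6.50-fold higher in primary tumors (adjusted p = 0.0032), where the call was lost without the second SCC-7 array (adjusted p = 0.052). The platelet list, of which Itga2b, Gp9 and Gp1bb were kept of 6 genes, averaged 5.24 to 5.64 in recurrent tumors, 5.22 to 5.96 in primary tumors and 6.11 to 6.18 in SCC-7 cells. Gp9 was detected on only 3 arrays, none of them of SCC-7 cells. The part of platelets in the Pf4 levels was not tested.

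Of the other CXC ligands, Cxcl16 was the most even across tumors. Cxcl16, a transmembrane ligand of Cxcr6 that also takes up oxidized lipoprotein, had levels of 10.41, 9.69, 9.99, 10.81 and 10.67 in recurrent tumors 1 to 5, of 8.95, 10.47, 10.97, 10.33 and 10.84 in primary tumors 1 to 5, and of 5.57 and 5.80 in SCC-7 cells, detected in the second. The groups of tumors overlapped fully and both stood apart from the cells. The difference was 4.63 ± 0.48 in recurrent tumors and 4.62 ± 0.48 in primary tumors, a rise of 24.7-fold and 24.6-fold with an adjusted p of 6.4e-05 in each. Its other kept probe was not detected in SCC-7 cells and also passed, with bounds of at least 2.33-fold in recurrent tumors and at least 2.14-fold in primary tumors.

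Cxcl12, the Cxcr4 ligand that stromal cells make, had levels of 6.94, 7.43, 8.04, 10.42 and 8.74 in recurrent tumors 1 to 5, of 8.62, 6.79, 11.32, 9.28 and 10.93 in primary tumors 1 to 5, and of 5.38 and 4.97, not detected, in SCC-7 cells. Primary tumors 3 and 5 and recurrent tumor 4 were above 10. In recurrent tumors the bound was 6.22-fold and the test did not pass (adjusted p = 0.075), and in primary tumors it was at least 13.1-fold higher (adjusted p = 0.025). The 3 kept Cxcl12 probes gave the same calls, and the call in primary tumors was lost in 5 of 18 settings, among them no background correction and leaving out either SCC-7 array. The fibroblast list (9 of 9 kept) averaged 7.45 to 8.18 in recurrent tumors, 7.56 to 8.62 in primary tumors and 5.91 to 5.97 in SCC-7 cells. The part of fibroblasts in the Cxcl12 levels was not tested.

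Cxcl14, a ligand made by epithelia, had levels of 6.16, 6.41, 7.70, 8.06 and 8.40 in recurrent tumors 1 to 5, of 8.92, 6.51, 6.43, 7.43 and 7.24 in primary tumors 1 to 5, and of 4.54 and 4.55, not detected, in SCC-7 cells. All tumors lay above the cells, and primary tumor 1 was the highest. The bound was at least 3.18-fold in recurrent tumors (adjusted p = 0.019) and at least 3.09-fold in primary tumors (adjusted p = 0.021). A second kept probe did not pass in recurrent (adjusted p = 0.19) or primary tumors (adjusted p = 0.22), and the calls of the first were lost without background correction, with the authors' normalized intensities and without either SCC-7 array.

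Cx3cl1, fractalkine, a membrane-bound ligand of the macrophage and microglia receptor Cx3cr1, had levels of 8.62, 7.57, 7.50, 9.27 and 7.99 in recurrent tumors 1 to 5, of 8.53, 9.44, 7.18, 8.69 and 9.40 in primary tumors 1 to 5, and of 6.86 and 6.60 in SCC-7 cells. All 10 tumors lay above the cells. The difference did not pass in recurrent tumors, at 1.46 ± 0.60 (adjusted p = 0.11), and passed in primary tumors, at 1.92 ± 0.60 (adjusted p = 0.045). Without primary tumor 3 it was 2.29 in primary tumors (adjusted p = 0.0061), and the call was lost in 9 of 16 settings. Xcl1, which T and NK cells release, was detected in 8 of 10 tumors and in neither SCC-7 array and did not pass in recurrent (adjusted p = 0.13) or primary tumors (adjusted p = 0.10). That a ligand passed in 1 tumor group and not in the other, as Ccl7, Ccl24, Cxcl10, Cxcl12 and Cx3cl1 did, does not show that the groups differed, which the paired comparison tests.

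Among the remaining CC ligands, Ccl25, known from thymus and gut, was lower than in SCC-7 cells in all 10 tumors. The difference was under 2-fold, at -0.74 ± 0.21 in recurrent tumors and -0.77 ± 0.21 in primary tumors (adjusted p = 0.033 and 0.028). Its levels were 5.26 to 5.95 in recurrent tumors, 5.46 to 5.93 in primary tumors and 6.51 and 6.29 in SCC-7 cells. They lay near the detection limit, and recurrent tumor 3 was below it. A dimmer kept probe was detected only in recurrent tumors 1 and 2, at 5.21 and 5.10, and on the second SCC-7 array. On the first SCC-7 array it was not detected at 5.69, so the limit lay higher there than in those tumors. The part of this limit in the difference was not tested. Ccl1, at 4.34 to 5.54 in recurrent tumors, 4.28 to 5.93 in primary tumors and 4.21 to 4.22 in SCC-7 cells, and Ccl27a, at 4.48 to 6.81, 4.59 to 5.31 and 5.61 to 5.74, were each detected on 5 arrays and did not pass.

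Neighboring genes did not all move together. On chromosome 11 of GRCm38.p6, Ccl2, Ccl7, Ccl11, Ccl12, Ccl8 and Ccl1 follow each other with no other protein-coding gene between them, and of these Ccl12 and Ccl8 were higher in both tumor groups, Ccl7 in recurrent tumors, and Ccl2, Ccl11 and Ccl1 in neither. Further along, Ccl5, Ccl9, Ccl6, Ccl3 and Ccl4 adjoin one another, and all but Ccl5 were higher in both groups. On chromosome 5, Pf4 (higher) and Cxcl1 (lower) lie in a run with Ppbp, Cxcl3, Cxcl15 and Cxcl2, none of which had a kept probe.

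The central comparison of the study set each recurrent tumor against the primary tumor of the same animal. With limma's paired fit, 0 of the 40 chemokine probes differed at an adjusted p of 0.05, as did 0% of all kept probes, the smallest adjusted p being 0.933. At an unadjusted p under 0.05, 1 chemokine probe was higher, Ccl3, and 0 were lower, against 2.48% and 0.78% of all kept probes. The median difference of the 29 genes was 0.0031 on the log2 scale, against 0.026 over all kept probes, with 15 genes above and 14 below 0 and a range of -1.10 (Ccl19) to 1.02 (Ccl6). By the study's kind of selection, here a change of 2-fold or more that 3 or more of the 5 pairs shared, Cxcl10 was higher in recurrent tumors and Cxcl12, with 2 of its 3 kept probes, was lower, against 0.997% and 0.341% of all kept probes. Both genes also have probes that were detected on no array and were not kept.

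In all 5 pairs Ccl3 had its higher level in the recurrent tumor. The share of all kept probes with all 5 pairs in the same direction was not counted. Its levels were 7.63, 6.97, 6.68, 7.95 and 8.16 in recurrent tumors 1 to 5, 6.57, 6.52, 6.60, 7.06 and 7.77 in primary tumors 1 to 5, and 4.62 and 4.42 in SCC-7 cells. The 2 tumors of a pair differed by 1.06, 0.45, 0.08, 0.89 and 0.39 in pairs 1 to 5, so that in pair 3 they were nearly the same, and the groups overlapped. The mean difference was 0.58 ± 0.19 (SE) on the log2 scale, and the adjusted p of 0.933 did not pass.

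Cxcl10 was higher in the recurrent tumor by 1.44, 1.11 and 1.21 in pairs 1, 2 and 4, lower by 1.99 in pair 3 and level in pair 5 (-0.03). The mean difference of 0.35 ± 0.51 did not pass (adjusted p = 0.948), and it was 0.93 without pair 3 and 0.07 without pair 1. Cxcl12 was lower in the recurrent tumor by 1.67, 3.29 and 2.20 in pairs 1, 3 and 5 and higher by 0.64 and 1.14 in pairs 2 and 4. Its mean difference was -1.08 ± 0.67 (adjusted p = 0.933), and the other kept probes gave -1.01 and -0.87; without pairs 1 and 3 it was -0.14.

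**Figure D4:**
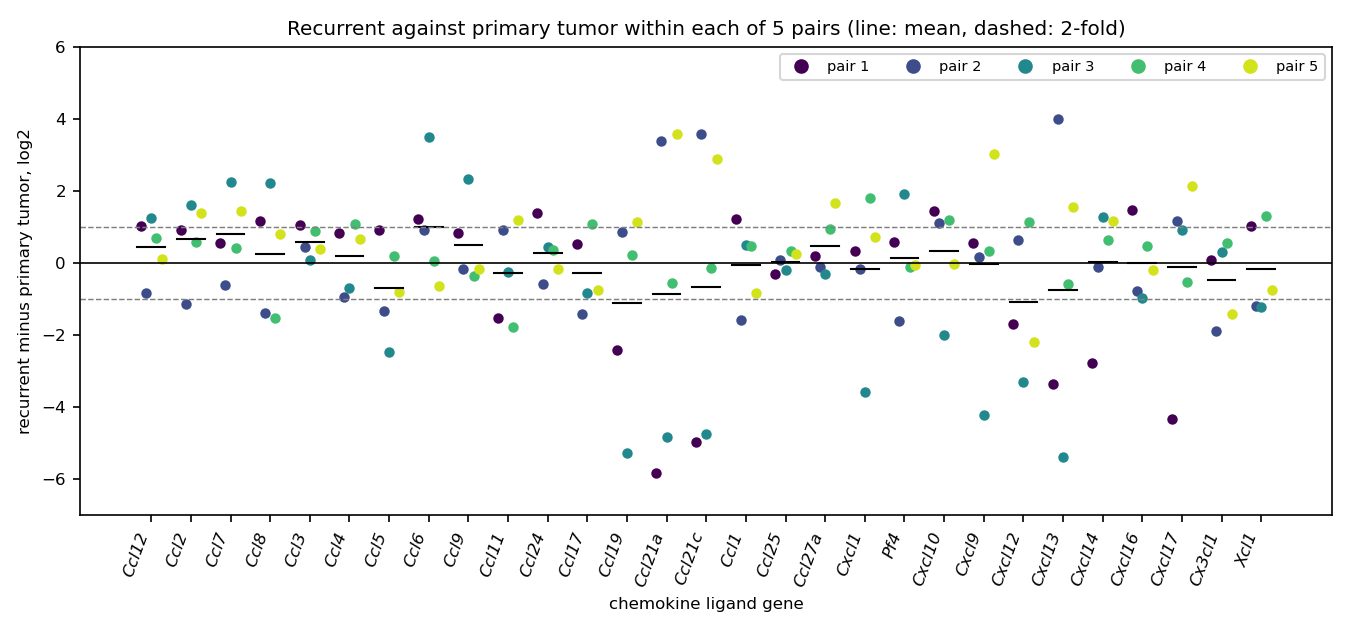
Each point is the log2 difference of the recurrent minus the primary tumor in a pair for a chemokine gene, the black line is the mean of 5 pairs, and dashed lines mark 2-fold. Only Ccl3 has all 5 points above 0, and Ccl21a, Ccl21c, Cxcl13, Cxcl17 and Cxcl9 run from below -4 to above 2. Where a probe was not detected in a tumor the size is set by the background, while Cxcl9 was detected in all 10 tumors.

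The other ligands called against SCC-7 cells had no common direction in the pairs. Ccl6 and Ccl7 had the largest positive mean differences among them, 1.02 ± 0.56 and 0.81 ± 0.40, each higher in the recurrent tumor of 4 pairs (adjusted p = 0.933 for both). The Ccl6 pair differences were 1.23, 0.93, 3.50, 0.06 and -0.64, and those of Ccl7 were 0.55, -0.61, 2.25, 0.42 and 1.46, so pair 3 gave the largest value of each. Cxcl16 did not differ on average (0.00 ± 0.37), with 2 pairs higher and 3 lower. Counted by pair, the recurrent tumor had the higher level of 20, 12, 13, 21 and 17 of the 29 genes in pairs 1 to 5. The share of all kept probes in each direction was not counted. Their median difference was 0.213, 0.0165, 0.121, 0.0025 and -0.043 in pairs 1 to 5. In pair 1 the kept probes as a whole thus also leaned to the recurrent tumor, and the 20 genes cannot be read as a chemokine result alone. Genes at least 2-fold higher and lower numbered 9 and 8 in pair 1 (5.07% and 8.65% of all kept probes), 5 and 8 in pair 2 (3.84% and 4.56%) and 8 and 10 in pair 3 (13.8% and 10.6%). In pair 4 they numbered 6 and 2 (1.75% and 1.59%), and in pair 5 they numbered 11 and 2 (3.75% and 1.24%). With 5 pairs an exact sign-flip test cannot reach a two-sided p under 0.0625.

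Chemokines of lymphoid tissue did not follow the tumor groups. Ccl21a and Ccl21c, near-identical genes that their probes may not tell apart, and Ccl19 are ligands of Ccr7, and Cxcl13 is the ligand of the B cell receptor Cxcr5. These genes were singled out in view of their values. Ccl21a had levels of 4.35, 8.46, 9.25, 4.56 and 8.03 in recurrent tumors 1 to 5, of 10.17, 5.07, 14.09, 5.12 and 4.45 in primary tumors 1 to 5, and of 4.35 and 4.42 in SCC-7 cells. It was detected in recurrent tumors 2, 3 and 5 and primary tumors 1 and 3, and in the other 5 tumors it lay at the level of the cells. Ccl21c was detected in the same 5 tumors and reached 13.40 in primary tumor 3.

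Cxcl13 had levels of 4.53, 9.71, 7.61, 4.38 and 5.97 in recurrent tumors 1 to 5, of 7.89, 5.71, 12.99, 4.96 and 4.42 in primary tumors 1 to 5, and of 4.26 and 4.47 in SCC-7 cells. Ccl19 had levels of 4.88, 5.57, 7.08, 5.27 and 6.22 in recurrent tumors 1 to 5, of 7.30, 4.72, 12.34, 5.04 and 5.09 in primary tumors 1 to 5, and of 5.53 and 5.05 in SCC-7 cells. Each was highest in primary tumor 3 by more than 3 log2 units over the next tumor. None of the 4 genes passed against SCC-7 cells (lowest adjusted p = 0.32, for Ccl21a in primary tumors) or between the pairs. The 5 tumors with Ccl21a detected had salivary list averages of 11.64 to 13.84, and the other 5 had 5.50 to 11.01, with 7.55 to 7.57 in SCC-7 cells. Cxcl17, a ligand of mucosal epithelia, was detected in these 5 tumors and in primary tumor 4, and was highest, at 9.50, in primary tumor 1, which also had the highest salivary list. The T cell and NK cell list and the B cell list were both highest in primary tumor 3. The part of salivary or lymphoid tissue in these levels was not tested.

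**Figure D5:**
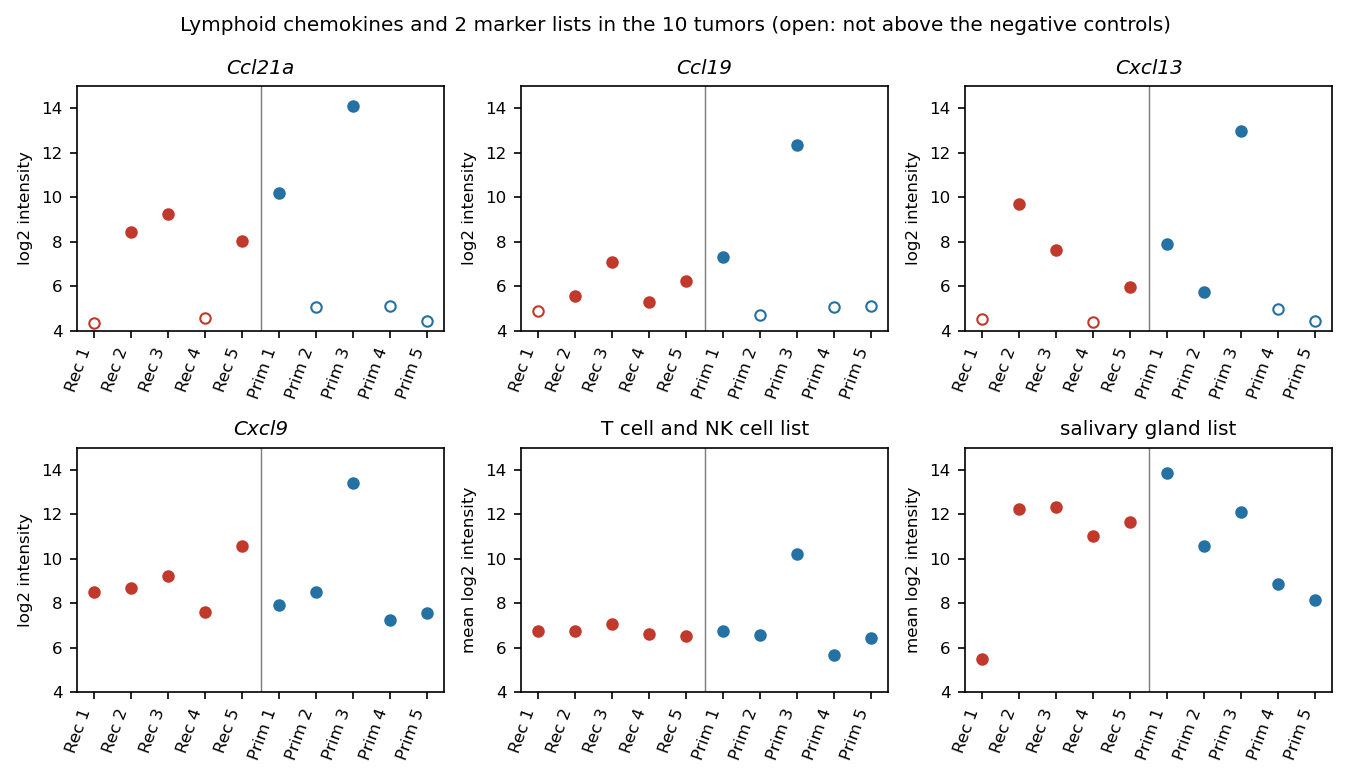
Levels of Ccl21a, Ccl19, Cxcl13 and Cxcl9 in the 10 tumors are shown as log2 intensity beside the mean log2 intensity of the T cell and NK cell list and of the salivary gland list, recurrent tumors left of the line and primary tumors right, with open points for probes that were not detected. Primary tumor 3 is the highest point in all panels but the salivary gland list, in which it has 12.09 and primary tumor 1 has 13.84.

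Of the 29 genes, 13 had their highest tumor level in primary tumor 3, which held the highest level for 20.5% of all kept probes. They were Ccl11, Ccl17, Ccl19, Ccl21a, Ccl21c, Ccl5, Cxcl1, Cxcl10, Cxcl12, Cxcl13, Cxcl16, Cxcl9 and Xcl1, so they include the Ccr7, Cxcr3 and lymphoid ligands. In the same tumor 7 genes, Ccl2, Ccl6, Ccl7, Ccl9, Ccl24, Cx3cl1 and Pf4, had their lowest level of the 10 tumors, as did 31.7% of all kept probes. Recurrent tumor 5 held the highest level of 7 genes (Ccl12, Ccl2, Ccl25, Ccl27a, Ccl3, Ccl4 and Ccl7), against 9.48% of all kept probes. Recurrent tumors 1 and 3 held it for 2 genes each (7.38% and 3.32% of all kept probes), recurrent tumor 4 for 1 (8.3%), primary tumors 1 and 2 for 2 each (13.3% and 6.66%), and recurrent tumor 2, primary tumor 4 and primary tumor 5 for 0 (13.8%, 7.88% and 9.39%). Without primary tumors 1 and 3, left out in view of their values, the comparison of primary tumors with SCC-7 cells gave 20 probes higher and 1 lower.

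Of 18 chemokine receptor genes listed, the array annotation names 17, and 7 had a kept probe. Of all 19031 named genes, 10346 had one. Among the 7 receptors, Cxcr4 and Cx3cr1, the receptors of Cxcl12 and Cx3cl1, were higher in both tumor groups than in SCC-7 cells. Cxcr4 ranged from 6.88 to 7.42 in recurrent tumors and from 6.45 to 9.08 in primary tumors and was not detected in SCC-7 cells, which made it at least 2.78-fold higher in recurrent tumors (adjusted p = 0.0052) and at least 3.19-fold higher in primary tumors (adjusted p = 0.0034). Cx3cr1, at 7.59 to 10.49 in recurrent tumors, 7.03 to 10.73 in primary tumors and 5.81 and 5.94 in SCC-7 cells, differed by 3.59 ± 0.91 and 3.39 ± 0.91 (adjusted p = 0.020 and 0.026). Of 5 atypical receptors 4 were kept and 0 called, and of 10 regulators of NF-kB and interferon signaling 8 were kept and 0 called. Of 13 chemokine-inducing cytokines 6 were kept, and oncostatin M (Osm) was called, at least 4.11-fold higher in recurrent tumors (adjusted p = 0.0038) and at least 3.47-fold higher in primary tumors (adjusted p = 0.0066). Over all kept probes, 6.86% were called higher in recurrent tumors and 6.64% in primary tumors. The 4 lists are too short for their calls to be compared with these shares. In the paired fit 0 genes of these 4 lists passed. The 7 receptors averaged 8.49 in primary tumor 3, against 5.67 to 6.63 in the other tumors and 4.75 in SCC-7 cells.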

How the data were processed

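Total RNA of 5 recurrent tumors, their 5 primary tumors and 2 samples of SCC-7 cells was measured with Illumina WG-6 v2 mouse BeadChips. Bead intensity values without normalization were deposited by the authors, each with a detection p-value not used here, and a second table of normalized intensity values whose method is not given in the sources used here. In the values without normalization, background was set by limma's nec (normexp, robust, offset 16) on 943 negative controls (control entries with a median intensity under 100), the 12 arrays were quantile normalized, and log2 was taken (limma 3.58.1, R 4.3.3). Probes detected on at least 2 of 12 arrays, at a one-sided p under 0.01 against the controls, were kept. Gene names come from the platform annotation, in which 34773 of 45135 probes have 1 symbol, 18 have several and 10344 have none.

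Paired tumors were tested with limma (lmFit, eBayes), the animal being a block, and tumors with SCC-7 cells in a fit of 3 groups sharing 1 estimate of spread, with p-values adjusted by Benjamini-Hochberg over the 18454 kept probes. The study states that both tumors of a pair came from 1 animal. In pairs 1 to 5 the deviations of both tumors from the mean of their group had correlations of -0.37, 0.03, 0.34, 0.36 and 0.17, and 0 recurrent tumors correlated best with their own primary tumor. The labels do not say whether the SCC-7 samples came from separate cultures, so that their spread may be technical. The number of arrays limits the precision. A bound on a fold change uses, for SCC-7 cells, the higher of the probe's signal and the dimmest detected signal on each array. The fits were also run on simulated data, and no result given here rests on that run. Alternatives were other background corrections, scalings, filters, fold cutoffs, variance models and blocks, the methods' t-test, other probes of a gene, and leaving out arrays. Values in every array are given for genes called against SCC-7 cells, altered in at least 3 pairs, or at an unadjusted p under 0.05 between pairs. The members, gene lists and tests were chosen with earlier results of these data known. Figures were drawn with matplotlib 3.10.9.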

Additional observations from a re-analysis of the deposited data

Results flagged for a closer look

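In 58 groups of 5 tumors (29 genes in 2 tumor groups), 6 held a tumor set far apart from the other 4 by Dixon's criterion, and chance marks about 1 group in 20. Primary tumor 3 accounts for 5 of the 6. Its level was lower than in the other primary tumors for Ccl6 (6.20, next 8.13), Ccl7 (9.22, next 10.58), Ccl9 (9.99, next 11.31) and Pf4 (6.97, next 8.52), and higher for Cxcl9 (13.42, next 8.51). Recurrent tumor 2 had a Pf4 level of 7.19, and the next recurrent tumor had 8.68. All of these values were detected above the negative controls.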

How the results depend on the processing

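In the paired fit the counts of chemokine probes stayed at 0 in each direction under every setting run, with no replicate block (0), with the methods' t-test (0 before and after adjustment) and with each pair left out. The count at least 2-fold higher in at least 3 pairs (1) was 0 without background correction, 3 with median scaling, 0 with the authors' normalized intensities, 10 at 1.5-fold, 0 at 3-fold, 0 at 4 or more pairs, 0 without pairs 1 and 3 (which leaves 3 pairs, so the genes that met it through pair 1 or 3 could not), and 0 to 1 with each pair left out. The count lower (2) was 1, 1, 1, 6, 1, 0 and 0 under the same settings, and 0 to 2 with each pair left out. Against SCC-7 cells, the probes higher in primary tumors (17) were 11 without background correction and 11 with the authors' intensities, and those in recurrent tumors (16) stayed within 1.5 times under both. With all probes tested, 12 were higher in recurrent tumors and 12 in primary tumors. Leaving out each array in turn gave 10 to 15 in recurrent tumors and 7 to 20 in primary tumors, the lowest without an SCC-7 array: 10 and 10 in recurrent tumors, and 9 without the first and 7 without the second in primary tumors. The 1 probe lower in each comparison, Cxcl1, was 0 with median scaling and 0 without a filter, and 0 to 1 with each array left out; with no fold cutoff 2 were lower in recurrent and 3 in primary tumors. The animal as a random replicate block gave 16 and 1 in recurrent and 17 and 1 in primary tumors, changing no count.

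Of the called genes, 8 of 14 in recurrent tumors (Ccl12, Ccl3, Ccl4, Ccl6, Ccl8, Ccl9, Cxcl16 and Pf4) and 5 of 13 in primary tumors (Ccl12, Ccl4, Ccl8, Ccl9 and Cxcl16) passed under every setting run for them, and 0 changed direction. Cxcl9, Cxcl10, Cxcl1 and Cx3cl1 each lost a call under 7 or more settings. Recurrent minus primary differences turned sign for Cxcl16 without background correction (-0.002) and for Cxcl9 with median scaling (0.003). Without pairs 1 and 3, chosen after seeing the data, they turned for Ccl12 (-0.013), Ccl24 (-0.12), Ccl8 (-0.70), Ccl9 (-0.23), Cxcl1 (0.80), Cxcl16 (-0.16), Cxcl9 (1.18) and Pf4 (-0.59). With 1 pair left out they ranged from -0.022 to 0.48 for Ccl4, -0.24 to 0.70 for Ccl8, -0.66 to 0.69 for Cxcl1, -0.27 to 0.74 for Cxcl14, -0.36 to 0.25 for Cxcl16, -0.79 to 1.03 for Cxcl9 and -0.30 to 0.59 for Pf4. None of these passed the test, and the causes were not tested. A slide block was not run, as slides are not named.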
